A study of Mus musculus with 10 samples.

Results

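The genes that build cholesterol and fatty acids were followed through 4 RNA libraries and 3 lists of RAD23B-bound regions from mouse embryonic stem cells. They were named by symbol: 22 sterol genes (the enzymes from acetyl-CoA to cholesterol, 5 regulators and a transport protein) and 10 fatty acid genes. Of these 32 symbols, 31 were found among the 36586 genes of the expression tables, 21 sterol and all 10 fatty acid genes; Tm7sf2 was not matched. RNA came from the JM8.N4 embryonic stem cell line, with 1 library each from wild-type cells, Rad23b-/- cells, and Rad23b-/- cells in which Xpc was also knocked down (Rad23b-/-Xpc KD1 and Rad23b-/-Xpc KD2, here knockdown 1 and knockdown 2). Both knockdowns thus carry the Rad23b deletion, and all 3 mutant libraries were set against the same wild-type library. RAD23B was mapped by chromatin immunoprecipitation in 2 replicates of wild-type D3 embryonic stem cells and in 1 library of Xpc-/- embryonic stem cells, each beside guinea pig IgG. The RNA and the RAD23B maps therefore come from different lines. Nothing in the labels says whether the JM8.N4 mutants are single clones or whether the D3 replicates came from separate cultures.

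RAD23B is a partner of XPC in the complex that recognises damaged DNA, and the series is titled as a study of that complex as a transcriptional coactivator. Cholesterol is made from acetyl-CoA through mevalonate and squalene. Fatty acids are made from the same acetyl-CoA by a carboxylase and a synthase, and are then lengthened and desaturated. The genes of both branches are classic targets of the SREBP transcription factors (encoded by Srebf1 and Srebf2). SCAP escorts SREBPs out of the endoplasmic reticulum when sterols are low, and the INSIG proteins hold them back when sterols are high. SREBPs bind sterol regulatory elements, commonly beside sites for NF-Y, which reads CCAAT, and for SP1, which reads GGGCGG.

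Because the genes were read together, the sequences before their starts are shown for 6 of them: the regulator Insig1, 3 enzymes of the sterol branch (Hmgcs1, Idi1 and Nsdhl) and 2 genes at the head of fatty acid synthesis (Fasn and Acly). Each run is the 250 bases before the start in RefSeq's GRCm38.p6, read 5′ to 3′ on the strand of the gene. Capitals mark TCACNCCAC, a sterol regulatory element core. They also mark CCAAT, which reads ATTGG where it lies on the opposite strand. The third motif in capitals is GGGCGG, which reads CCGCCC where it lies on the opposite strand.
Insig1 (chr5:28071162-28071411, plus strand): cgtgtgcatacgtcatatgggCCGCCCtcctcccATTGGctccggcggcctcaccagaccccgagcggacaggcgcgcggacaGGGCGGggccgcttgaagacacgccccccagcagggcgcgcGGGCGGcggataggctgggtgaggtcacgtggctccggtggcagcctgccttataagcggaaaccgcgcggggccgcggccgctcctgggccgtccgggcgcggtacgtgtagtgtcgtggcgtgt
Hmgcs1 (chr13:119690101-119690350, plus strand): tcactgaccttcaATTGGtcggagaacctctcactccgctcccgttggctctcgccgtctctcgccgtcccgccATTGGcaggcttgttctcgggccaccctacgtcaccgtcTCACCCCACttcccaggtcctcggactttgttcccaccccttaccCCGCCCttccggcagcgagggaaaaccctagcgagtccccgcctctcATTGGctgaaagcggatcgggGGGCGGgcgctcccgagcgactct
Idi1 (chr13:8885356-8885605, plus strand): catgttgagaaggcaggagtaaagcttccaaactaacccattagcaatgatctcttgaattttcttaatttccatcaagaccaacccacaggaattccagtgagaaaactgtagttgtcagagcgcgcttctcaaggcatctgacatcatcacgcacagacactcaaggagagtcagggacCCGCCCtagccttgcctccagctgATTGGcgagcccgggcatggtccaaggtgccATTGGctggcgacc
Nsdhl (chrX:72918271-72918520, plus strand): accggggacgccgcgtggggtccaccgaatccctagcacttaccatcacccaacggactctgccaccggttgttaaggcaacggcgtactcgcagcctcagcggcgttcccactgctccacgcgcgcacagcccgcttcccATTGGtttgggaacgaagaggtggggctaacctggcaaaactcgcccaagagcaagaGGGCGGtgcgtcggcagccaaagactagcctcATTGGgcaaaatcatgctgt
Fasn (chr11:120824548-120824797, minus strand): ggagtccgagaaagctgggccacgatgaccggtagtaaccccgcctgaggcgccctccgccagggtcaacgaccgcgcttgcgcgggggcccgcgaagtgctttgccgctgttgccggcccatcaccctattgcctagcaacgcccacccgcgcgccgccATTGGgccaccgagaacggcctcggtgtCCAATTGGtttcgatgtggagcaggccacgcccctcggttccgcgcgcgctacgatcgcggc
Acly (chr11:100528001-100528250, minus strand): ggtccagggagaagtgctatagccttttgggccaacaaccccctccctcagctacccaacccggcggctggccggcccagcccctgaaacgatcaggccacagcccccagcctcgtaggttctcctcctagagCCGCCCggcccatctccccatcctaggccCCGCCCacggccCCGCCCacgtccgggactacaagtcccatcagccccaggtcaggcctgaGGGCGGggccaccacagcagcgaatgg

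In the Hmgcs1 run a TCACNCCAC match lies 137 to 129 bases before the start, between 2 CCAAT matches farther out and 1 nearer the start. Idi1 and Nsdhl each carry 2 CCAAT matches and 1 GGGCGG match. The Fasn run carries 3 CCAAT matches, of which the 2 nearest the start overlap each other on opposite strands. Acly carries 4 GGGCGG matches and no CCAAT in these bases. The CCAAT of Acly counted next is not within the bases shown, and its place was not recorded. Over the RefSeq windows of 300 bases (250 before and 50 after the start, both strands, every window of a gene), which were given for 25 of the 32 symbols, CCAAT stood in 20 genes (80.0%), against 44.1% of protein-coding genes with a wild-type RPKM of at least 1. It stood in 16 of 18 sterol genes and in 4 of 7 fatty acid genes. GGGCGG stood in 21 of the 25 (84%, against 71.8%), and TCACNCCAC in Hmgcs1 alone (4.0%, against 1.38%). These are letter matches in a fixed window and no record of binding; windows were not given for Scd1, Scd2, Fads1, Fdft1, Fdps, Sqle and Stard4. Over all windows of the table the shares were 37.4% for CCAAT, 35.7% for GGGCGG and 1.24% for TCACNCCAC.

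RNA was measured as RPKM, reads scaled to transcript length and library size, and change as the log2 ratio of mutant RPKM + 1 to wild-type RPKM + 1, a scale that understates the change of low genes. All 31 genes found were above the RPKM limit of 1, the lowest being Acss2. Most of both branches was lower than wild type in every mutant library. In Rad23b-null cells the median log2 ratio was -0.62 over the 21 sterol genes and -0.83 over the 10 fatty acid genes, against -0.16 over all 15040 genes above the limit. It was -0.45 and -0.76 in knockdown 1, where all genes stood at -0.14, and -0.44 and -0.60 in knockdown 2, where all genes stood at -0.14. Of the 31 genes, 29, 29 and 28 were below wild type in the 3 libraries in that order, where 62.9%, 63.8% and 62.7% of all genes were. Of the 31, 28, 28 and 27 lay below the median of all genes.

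In Rad23b-null cells 3 sterol and 4 fatty acid genes were at least 2-fold lower (4.61% of all genes were), and none was 2-fold higher (4.74%). In knockdown 1 the numbers were 1 and 2 (3.4% of all genes) and in knockdown 2 again 1 and 2 (3.6%), with none higher (3.95% and 3.93%). Measured from the median of all genes instead, 1 sterol and 1 fatty acid gene, Fdps and Scd1, were 2-fold lower in Rad23b-null cells, where 3.07% of all genes were, so the sterol count was then near the background. At a 1.5-fold limit, 13 sterol and 8 fatty acid genes were lower in Rad23b-null cells (16.4% of all genes, 24.41% of those at 20 RPKM or more). The numbers were 7 and 6 in knockdown 1 (12.4% and 16.9%) and 5 and 5 in knockdown 2 (13.7% and 20.01%). None was 1.5-fold higher, against 10.8%, 9.1% and 9.61% of all genes. With 1 library per group these differences have no replicate check, and no p-value was computed. In bulk RNA, fewer cells of a type and less RNA per cell cannot be told apart.

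**Figure D1:**
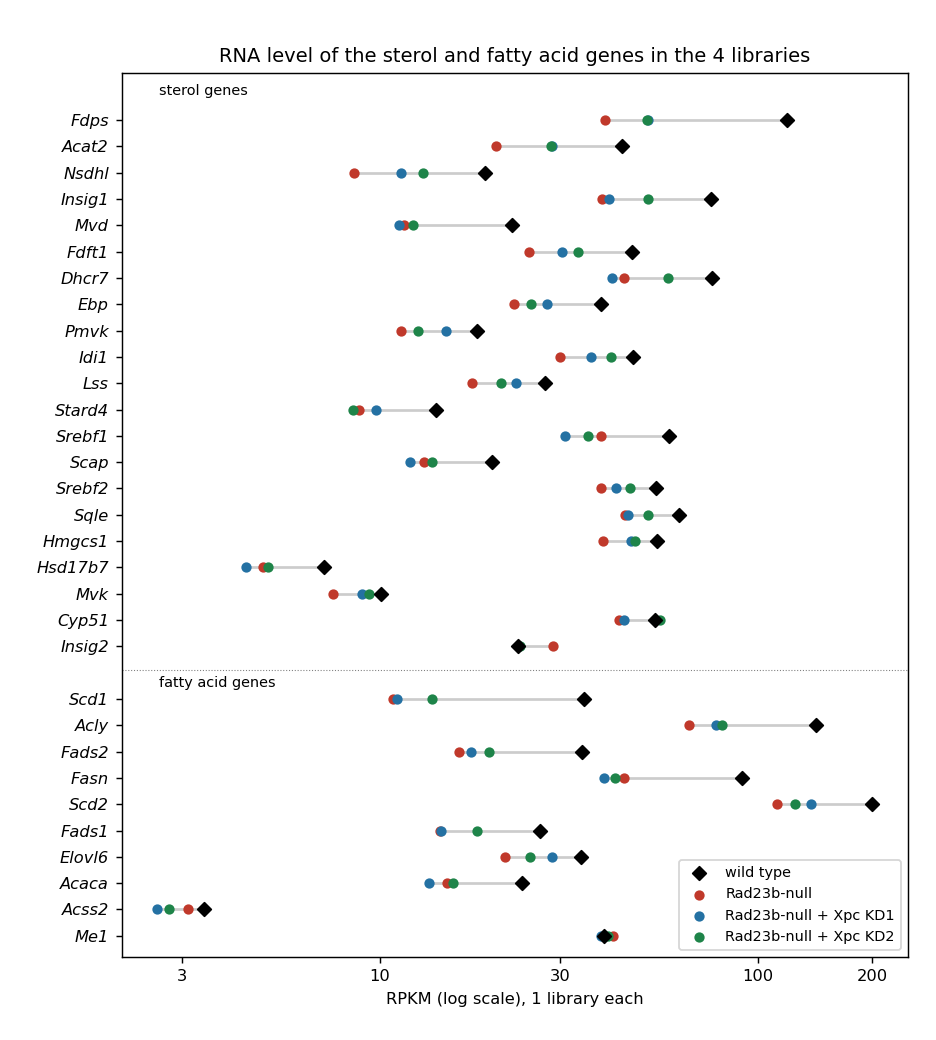
RPKM of each of the 31 genes on a log axis in the 4 libraries, 1 point per library, sterol genes above and fatty acid genes below, ordered by the Rad23b-null log2 ratio, with wild-type values from the Rad23b-null table. The wild-type diamond is the rightmost point for 28 of the 31 genes, the exceptions being Cyp51, Insig2 and Me1.

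Among the enzymes from acetyl-CoA to farnesyl diphosphate, the largest difference was at Fdps, farnesyl diphosphate synthase, which makes the last shared precursor of sterols and prenyl groups. Fdps stood at 119 RPKM in wild type, 39.4 in Rad23b-null cells and 51.0 and 50.9 in knockdowns 1 and 2 (log2 -1.57, -1.17 and -1.19). The 3 mutant libraries were at 33.0%, 43.9% and 43.4% of wild type and the 2 knockdowns were close to each other. For Fdps the p-value in the authors' deposited table was 0.001, then 0.007 and 0.008 in the knockdowns, none of which rests on replicates. Fdps is listed on the same coordinates as a U6 gene.

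Acat2, the cytosolic thiolase that opens the pathway, stood at 43.7 RPKM in wild type, 20.3 in Rad23b-null cells and 28.5 and 28.3 in knockdowns 1 and 2 (log2 -1.07, -0.56 and -0.59). Rad23b-null cells held the lowest value and the knockdowns lay between them and wild type. In the authors' deposited table Acat2 had p-values of 0.049, 0.242 and 0.244. Mvd, which makes isopentenyl diphosphate, went from 22.4 to 11.6, 11.2 and 12.3 (-0.89, -0.90 and -0.79), alike in the 3 mutants, but it is listed on a locus of 4.44 Mb together with other genes (156 in all). Pmvk, phosphomevalonate kinase, went from 18.0 to 11.4, 14.96 and 12.6 (-0.62, -0.22 and -0.46), with knockdown 1 nearest to wild type. Idi1, the isopentenyl diphosphate isomerase, went from 46.6 to 29.9, 36.2 and 40.8 (-0.62, -0.32 and -0.16), with knockdown 2 nearest to wild type.

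Of the 7 mevalonate enzymes, Hmgcs1 and Mvk differed least in Rad23b-null cells. Hmgcs1, the HMG-CoA synthase whose sequence before the start held the sterol element match, went from 53.9 to 38.9, 46.2 and 47.3 RPKM (log2 -0.46, -0.18 and -0.16), so both knockdowns were close to the median of all genes. Mvk, mevalonate kinase, went from 10.1 to 7.53, 8.97 and 9.38 (-0.38, -0.12 and -0.07), and its knockdown values were nearer to wild type than that median. The 7 mevalonate enzymes had median log2 ratios of -0.62, -0.32 and -0.46 in the 3 mutants.

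From squalene to cholesterol, Nsdhl, which removes a carboxyl group from the sterol ring, differed most in Rad23b-null cells. It stood at 19.0 RPKM in wild type, 8.54 in Rad23b-null cells and 11.4 and 13.01 in knockdowns 1 and 2 (log2 -1.07, -0.66 and -0.49). Fdft1, squalene synthase, went from 46.5 to 24.8, 30.4 and 33.3 (-0.88, -0.56 and -0.44). In both genes Rad23b-null cells were lowest and knockdown 2 was nearest to wild type; Fdft1 shares its listed coordinates with Ctsb. Nsdhl had p-values of 0.047, 0.168 and 0.312 in the authors' deposited table.

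Dhcr7, the sterol reductase of the final step, differed most between the knockdowns. It stood at 75.6 RPKM in wild type, 44.2 in Rad23b-null cells and 41.0 and 57.7 in knockdowns 1 and 2 (log2 -0.76, -0.83 and -0.36), the widest gap between the 2 knockdowns among the 31 genes (0.47). Ebp, the sterol isomerase, went from 38.5 to 22.6, 27.6 and 25.1 (-0.74, -0.43 and -0.58). Lss, lanosterol synthase, went from 27.4 to 17.5, 22.8 and 20.9 (-0.62, -0.22 and -0.35). For Ebp and Lss the Rad23b-null value was the lowest of the 4.

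Hsd17b7, the ketosteroid reductase, was low throughout, at 7.12 RPKM in wild type and 4.92, 4.44 and 5.06 in the mutants (log2 -0.46, -0.54 and -0.40). Sqle, squalene epoxidase, went from 61.7 to 44.4, 45.3 and 51.1 (-0.47, -0.40 and -0.24). Cyp51, the lanosterol demethylase, went from 53.2 to 42.9, 44.2 and 54.9 (-0.30, -0.23 and 0.07). Cyp51 was the sterol enzyme nearest to wild type in Rad23b-null cells and the only enzyme of the 15 above wild type in knockdown 2. Over the 8 enzymes from squalene onward the median log2 ratio was -0.68, -0.49 and -0.38.

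The regulators split. Insig1, an SREBP target that retains the SCAP complex, stood at 74.9 RPKM in wild type, 38.6 in Rad23b-null cells and 40.3 and 51.1 in knockdowns 1 and 2 (log2 -0.94, -0.84 and -0.52), so Rad23b-null cells and knockdown 1 were close to each other and knockdown 2 nearer to wild type. Its paralogue Insig2 was not lower: 23.2 in wild type and 28.6, 23.3 and 23.5 in the mutants (0.29, 0.04 and 0.04). In the authors' deposited table Insig1 had p-values of 0.046, 0.045 and 0.234, and Insig2 had 0.844, 0.979 and 0.978.

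Srebf1 went from 58.1 to 38.4, 30.8 and 35.5 RPKM (log2 -0.59, -0.85 and -0.67), lowest in knockdown 1. Scap went from 19.7 to 13.1, 12.003 and 13.7 (-0.56, -0.64 and -0.47), with the 3 mutants close together. Srebf2, which encodes the SREBP most tied to sterol synthesis, went from 53.8 to 38.3, 42.2 and 45.7 (-0.48, -0.31 and -0.21). All 3 share their listed coordinates with other genes, Srebf2 with Mir33, a microRNA in its intron, and a value can then belong to the merged locus as a whole. Stard4, which carries sterols between membranes, went from 14.0 to 8.83, 9.76 and 8.48 (-0.61, -0.45 and -0.64), and here knockdown 2 was the lowest.

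**Figure D2:**
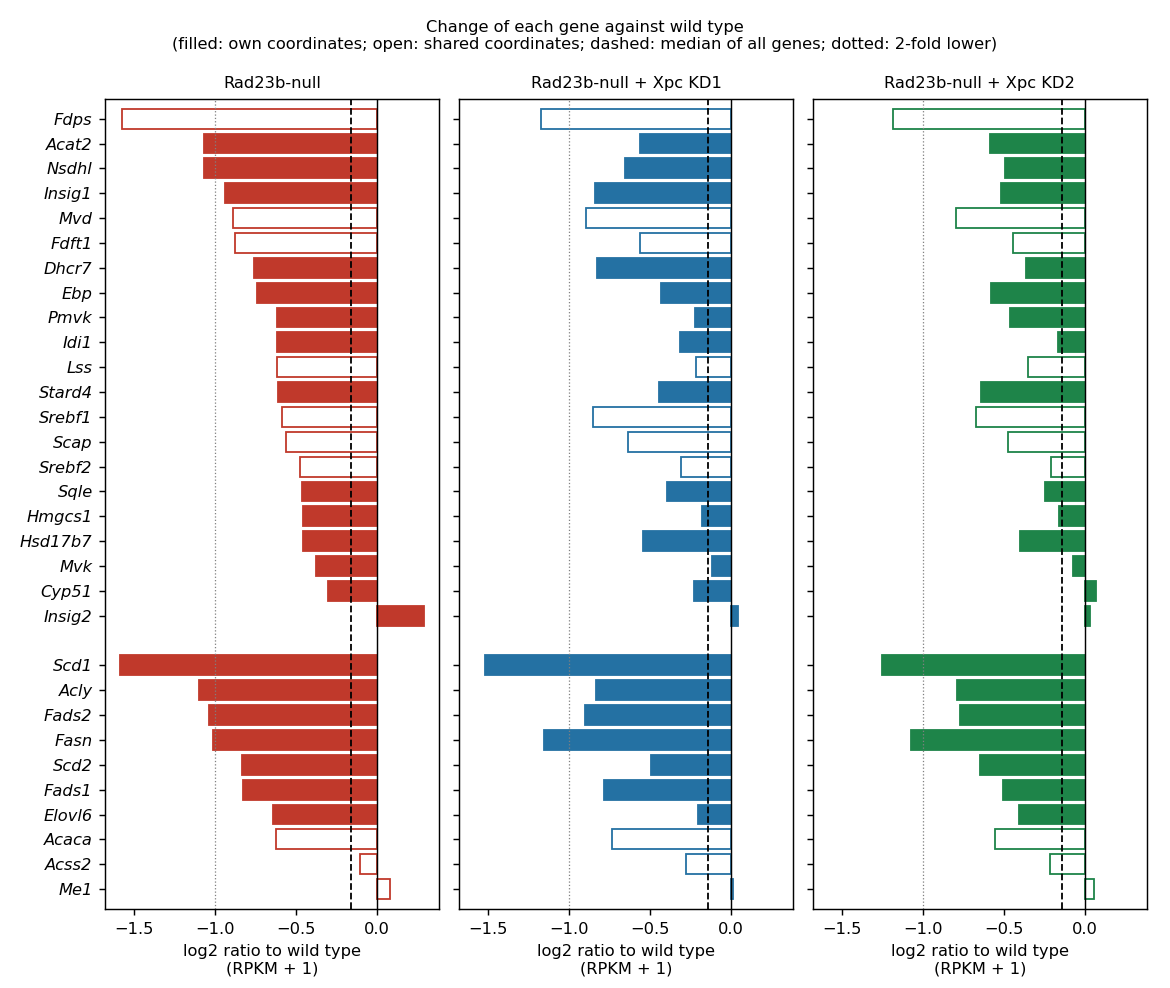
Log2 ratio of mutant to wild-type RPKM + 1 for the 31 genes, in 1 panel per mutant library, with the median of all genes dashed, the 2-fold limit dotted, and open bars for genes that share listed coordinates. Fdps and Scd1 pass the 2-fold limit in all 3 panels, Fasn too, and Insig2 and Me1 lie on the other side of 0 in each.

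The fatty acid genes were led by Scd1, the stearoyl-CoA desaturase that makes oleate. It stood at 34.6 RPKM in wild type, 10.8 in Rad23b-null cells and 11.1 and 13.7 in knockdowns 1 and 2 (log2 -1.59, -1.52 and -1.25), which is 31.4%, 32.9% and 40.3% of wild type. All 3 mutant values lay far below wild type and near each other. Scd1 had a p-value of 0.001 for Rad23b-null cells, 0.003 for knockdown 2 and 0 at the 3 decimals printed for knockdown 1, all from the authors' deposited table. Scd2, its more abundant relative, went from 200.1 to 112, 138 and 125 (-0.83, -0.50 and -0.65).

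The other desaturases were lower too. Fads2, which opens the route to polyunsaturated fatty acids, went from 34.3 to 16.2, 17.5 and 19.4 RPKM (log2 -1.04, -0.90 and -0.77), with p-values of 0.037, 0.046 and 0.094 in the authors' deposited table. Fads1, the next desaturase of that route and its neighbour on chromosome 19, went from 26.5 to 14.5, 14.5 and 18.0 (-0.83, -0.79 and -0.51). In both, Rad23b-null cells and knockdown 1 were close and knockdown 2 was nearer to wild type. Elovl6, which lengthens palmitate, went from 34.0 to 21.4, 28.6 and 24.9 (-0.65, -0.21 and -0.41).

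At the head of the branch, Acly, which splits citrate into cytosolic acetyl-CoA, stood at 142 RPKM in wild type, 65.5 in Rad23b-null cells and 77.1 and 80.2 in knockdowns 1 and 2 (log2 -1.103, -0.83 and -0.79). Fasn, fatty acid synthase, went from 90.5 to 44.3, 39.1 and 41.7 (-1.01, -1.15 and -1.07), at 48.9%, 44.3% and 46.9% of wild type and lowest in knockdown 1. Acaca, acetyl-CoA carboxylase, went from 23.7 to 15.1, 13.5 and 15.6 (-0.62, -0.74 and -0.55) and shares its coordinates with other genes. The authors' deposited table listed no p-value under 0.05 for Acly, Fasn or Acaca. Me1, malic enzyme, which supplies NADPH, was near wild type throughout, at 39.0 and 41.2, 38.3 and 40.1 (0.08, 0.01 and 0.06). Acss2, an acetyl-CoA synthetase, was at 3.43 in wild type and 3.12, 2.58 and 2.78 in the mutants (-0.11, -0.28 and -0.21), and in knockdown 1 its ratio was below that of Elovl6. Both share listed coordinates with other genes.

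The authors' deposited table listed a p-value under 0.05 for 4 sterol and 2 fatty acid genes in Rad23b-null cells (2.77% of all genes had one), for 2 and 2 in knockdown 1 (2.76%) and for 1 and 1 in knockdown 2 (2.74%). Fdps and Scd1 were the pair below that limit in all 3 tables.

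Set against Rad23b-null cells rather than wild type, by the difference of their log2 ratios, the knockdowns were mostly higher for the sterol genes. In knockdown 1, 15 of 21 sterol genes lay above Rad23b-null cells (median difference 0.17) and 6 of 10 fatty acid genes did (0.05); 54.2% of all genes did (0.03). In knockdown 2 the numbers were 18 of 21 (0.27) and 7 of 10 (0.21), against 55.1% of all genes (0.02). Acat2 (0.51 and 0.48), Nsdhl (0.41 and 0.58) and Fdps (0.40 and 0.39) were among the genes most above Rad23b-null cells. Insig2 (-0.25 and -0.25), Srebf1 (-0.27 and -0.09) and Fasn (-0.14 and -0.06) were below them in both. These differences share the Rad23b-null and the wild-type library, and with 1 library per group their error is unknown. They were not set beside genes at 20 RPKM or more. The median ratio to wild type of those genes was also higher in the knockdowns (-0.26 and -0.29) than in Rad23b-null cells (-0.33). The part of level in these differences was not tested.

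Levels and chromosomes moved with the result. Among all genes the log2 ratio in Rad23b-null cells went with level, from a median of 0.09 at 1 to 5 RPKM and -0.10 at 5 to 20 RPKM to -0.30 at 20 to 100 RPKM and -0.44 at 100 RPKM or more. Most of the 31 genes are well expressed, so a closer background is the genes at 20 RPKM or more, whose medians were -0.33, -0.26 and -0.29 in the 3 mutants. In those genes 24.41%, 16.9% and 20.01% were at least 1.5-fold lower. The part of level in the lower sterol and fatty acid RNA was not tested. Against these medians, the 15 sterol genes of that level stood at -0.62, -0.43 and -0.36 and the 9 fatty acid genes at -0.83, -0.79 and -0.65. In knockdown 2 the median of these 15 sterol genes was thus near this background. The count of 5 that were 1.5-fold lower in knockdown 2 is over all 21 sterol genes, also those under 20 RPKM. The 15 were not counted apart.

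Chromosome 11 was lower as a whole: its genes had a median of -0.44 in Rad23b-null cells and -0.45 and -0.44 in knockdowns 1 and 2. The other 19 chromosomes lay between -0.23 and -0.05, -0.21 and -0.07, and -0.19 and -0.05. Acly, Fasn, Acaca and Srebf1 are on chromosome 11. Relative to its median, Fasn stood at -0.57, -0.70 and -0.64 and Acly at -0.66, -0.38 and -0.35, while Acaca (-0.18, -0.29 and -0.12) lay closer to the chromosome in each library. Srebf1 stood at -0.14, -0.40 and -0.23, closer than Fasn in each library but farther than Acly in knockdown 1. Scd1, on chromosome 19, stood at -1.40, -1.31 and -1.06 relative to its own chromosome. Without the chromosome 11 genes the fatty acid median was -0.83, -0.50 and -0.51 over 7 genes. The part of chromosome 11 in the values of its 4 genes was not tested.

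**Figure D3:**
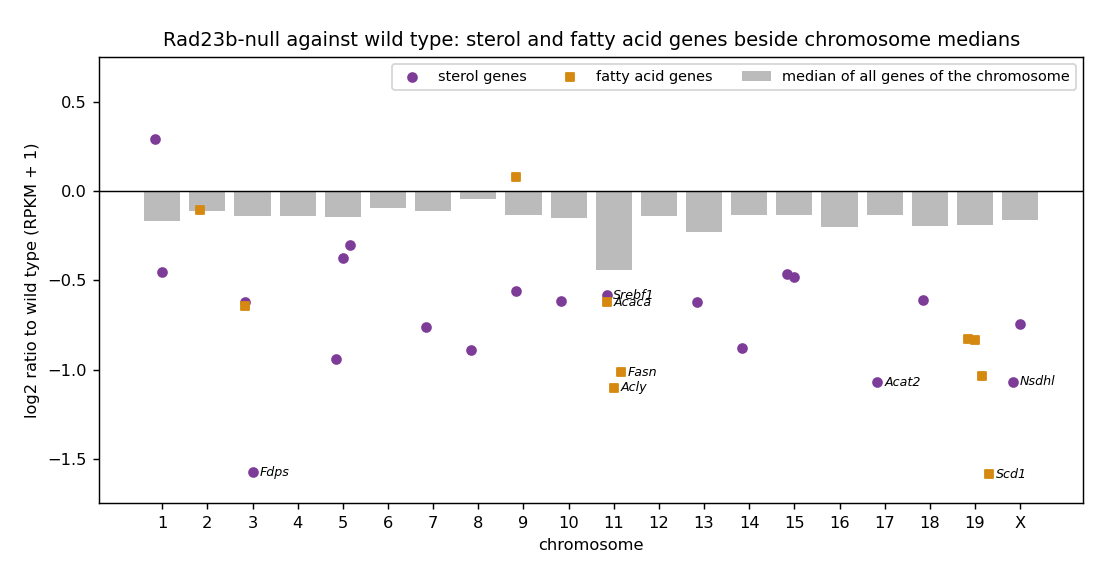
Log2 ratio in Rad23b-null cells of the sterol and fatty acid genes, by chromosome, over grey bars for the median of all genes of each chromosome; Hmgcs1, listed on an unplaced part of chromosome 13, is left out. The bar of chromosome 11 reaches -0.44, and Fasn and Acly lie below it by more than Acaca and Srebf1 do.

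By median, 2 lists of other genes around the same pathways differed less than the 31. Neither list is confined to synthesis. The sterol list also holds transport and efflux genes such as Npc1 and Abca1. The fatty acid list also holds oxidation genes such as Acadm and Hadha. The part of this make-up in the smaller medians was not tested. Of 20 other sterol genes, 19 were above the RPKM limit in the Rad23b-null table and 18 in each knockdown table, with medians of -0.21, -0.28 and -0.17 and none 2-fold apart in either direction. Among them are enzymes of cholesterol synthesis: Sc4mol, a sterol methyl oxidase, was at 85.6 RPKM in wild type and 74.0, 69.7 and 88.1 in the mutants, and Sc5d, a sterol desaturase, at 17.4 and 19.2, 15.6 and 15.7. These 2 enzymes were closer to wild type than most of the named ones, so the lower values were not uniform along the route. Of 29 other fatty acid genes 27 passed, with medians of -0.28, -0.16 and -0.20. At the 1.5-fold limit 7, 5 and 5 of the 27 were lower, against 16.4%, 12.4% and 13.7% of all genes. In Rad23b-null cells 3 of the 27 were at least 2-fold lower (4.61% of all genes), so by count this list also held more lower genes than the background. None was 2-fold lower in the knockdowns (3.4% and 3.6%). The 3 were Slc25a1, the mitochondrial citrate carrier that feeds Acly (109 to 52.5, 59.2 and 64.4 RPKM), Cpt1a, which admits fatty acids to oxidation (26.7 to 12.7, 13.1 and 15.3), and Pcyt2, of phosphatidylethanolamine synthesis (22.1 to 10.1, 10.8 and 10.6), which is on chromosome 11. Cpt1a belongs to fatty acid breakdown and not to synthesis.

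The libraries were checked against their labels and markers. Rad23b RNA was at 229 RPKM in wild type and 35.8 to 52.5 in the mutants, where the part of the gene that these reads cover is not given, and Xpc was at 8.73 in wild type, 8.34 with Rad23b deleted alone and 0.915 and 0.895 in the knockdowns. Relative depth, read from the steps between low values, was 1.30, 1.23 and 1.26 times wild type in Rad23b-null cells, knockdown 1 and knockdown 2; the read totals are not given. All 7 embryonic stem cell markers were above 1 RPKM in every library and summed to 5632 RPKM in wild type and 4122 to 5853 in the mutants. Of these markers 4 were below wild type in all 3 mutants: Pou5f1, Sox2, Esrrb and Nanog. Esrrb went from 162 to 51.5, 77.0 and 60.2 and Nanog from 512 to 197, 243 and 209. Tdgf1 was above wild type in all 3 (1087 to 1151, 1593 and 1304), and Zfp42 and Dppa5a lay on either side. Summed RPKM was 1.65 to 2.38 over 7 fibroblast markers, with Postn at 0 throughout and Col3a1 at 0 in the mutants, 5.95 to 8.47 over 6 primitive endoderm markers, 34.2 to 62.4 over 5 trophectoderm markers, 1.04 to 1.63 over 3 mesoderm markers and 6.09 to 9.11 over 2 neural markers. Single markers moved within these sums. Hand1 went from 0.329 to 3.31, 3.48 and 1.70 RPKM and Cdx2 from 0.0991 to 0.649, 0.596 and 0.751. Gata4 went from 1.26 to 3.02, 2.70 and 2.67 and Sox7 from 1.15 to 2.76, 2.88 and 2.38. With Sox17 these were the trophectoderm and primitive endoderm markers above wild type in all 3 mutants. Eomes (14.2 to 9.36, 12.2 and 8.77), Dab2 and Gata6 were below it in all 3. Of the fibroblast markers, Thy1 was above wild type in all 3 mutants (0.759 to 1.6003, 1.2019 and 1.3307 RPKM). It was the only one of them over 1 RPKM in any library, and Col1a2 and Col3a1 were below wild type in all 3. Of the neural markers, Pax6 was above wild type in all 3, at 2.78 in wild type and 3.66 to 5.72 in the mutants, and Nes lay on either side. The part of the markers in the lower sterol and fatty acid RNA was not tested.

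RAD23B regions lay at nearly all of these genes in wild-type D3 cells, as they did at most expressed genes. A shared region is a replicate 1 region that overlaps a replicate 2 region by at least 1 bp; coordinates are mm9, and each fold is the authors' ratio of RAD23B to IgG. Of the 20 sterol genes that could be placed, 19 had a shared region within 5 kb of the listed locus, and all 10 fatty acid genes did (83.9% of all genes with a wild-type RPKM of at least 1). Hmgcs1 is listed on an unplaced part of chromosome 13 for which the lists hold no region. Among the 20 placed genes with coordinates of their own, 19 had one, against 85.6% of expressed protein-coding genes of that kind and 89.5% of those at 20 RPKM or more. Within 1 kb of the start, 17 of the 20 had one (75.5% and 82.8%). These counts, with no limit on fold, were thus close to the background of well-expressed genes. With a fold of at least 2 in both replicates, 14 of the 20 placed sterol genes and 9 of the 10 fatty acid genes kept a shared region within 5 kb. Of all genes with a wild-type RPKM of at least 1, 44.3% did. That share was not taken for genes at 20 RPKM or more, and the part of level was not tested.

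The 3 without a region at the start were Insig2, Ebp and Nsdhl. Insig2, which was not lower in the mutants, had a single weak region, chr1:123224214-123224759, 4407 bp into the gene (159 RAD23B and 102 IgG reads in replicate 1, folds 1.48 and 1.91 in the replicates). Ebp had 1 region beyond its end, chrX:7760181-7760746 (folds 3.29 and 2.64). Nsdhl, whose RNA was among the most reduced, had none in either replicate. Of the genes on shared coordinates, Me1, Acss2 and Mvd had no shared region within 1 kb of the listed start either. The RNA and the regions come from different lines, and a link between them was not tested.

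Over starts, Srebf2 had the region with most reads, chr15:81976832-81978545, with 1145 RAD23B and 360 IgG reads in replicate 1 and folds of 3.03 and 2.73. Fasn had chr11:120684681-120686539 (897 and 411 reads, folds 2.08 and 1.86) and Sqle had chr15:59146021-59147132 (676 and 281 reads, 2.29 and 2.06). Insig1 had chr5:28397206-28398820 (630 and 255 reads, 2.35 and 2.37) and Scd1 had chr19:44482064-44483137 (433 and 173 reads, 2.38 and 2.24). Over the 17 genes with a region at the start and coordinates of their own the median fold was 2.08 and 2.16 (1.55 to 2.87 and 1.55 to 3.001), against 1.81 and 1.87 over 5451 expressed protein-coding genes (5th to 95th percentile 1.39 to 2.70 and 1.43 to 2.89). The span given for the 17 genes is from lowest to highest. Folds were not set beside those of genes at 20 RPKM or more, so the part of level in this difference was not tested. The fold is the authors' own value per region and was used only as a description.

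Leaving out the merged locus of Mvd, the strongest regions lay away from starts. Elovl6 held 13 shared regions along a locus of 106.1 kb, and its strongest, chr3:129254589-129255782, lay 19286 bp into the gene with 657 RAD23B and 128 IgG reads and folds of 4.86 and 4.39. A second at Elovl6, chr3:129241499-129242027, had folds of 4.15 and 4.27. Upstream of Cyp51, chr5:4106971-4107586 had 3.34 and 4.03, and inside Acaca, chr11:84090324-84091031 had 3.28 and 3.45. On the merged locus of Acss2, chr2:155394939-155395485 had 3.27 and 4.47. At Fdps and Scd1, whose RNA differed most, the highest folds in replicate 1 were 2.37 and 2.43.

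**Figure D4:**
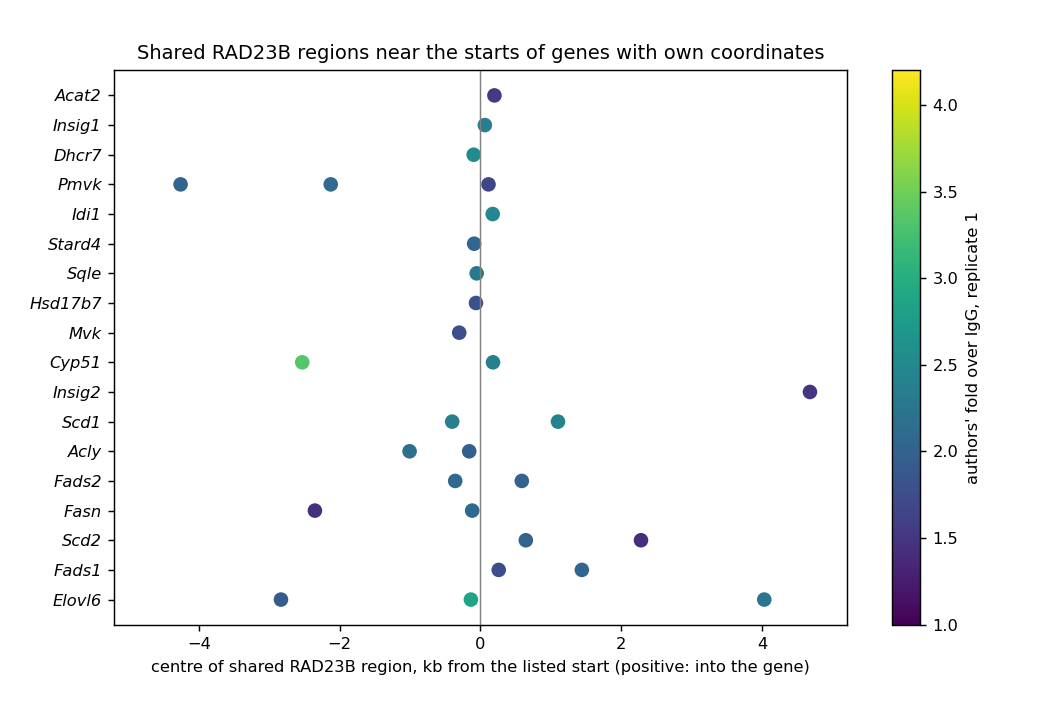
Centres of shared RAD23B regions within 5 kb of the listed start of genes with coordinates of their own, in kb, positive into the gene, coloured by the authors' replicate 1 fold over IgG. For 17 genes a region sits over the start, and the region of Insig2 lies over 4 kb into the gene.

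In the Xpc-/- list, which holds 828 regions, 2 of the 30 placed genes had a region within 5 kb (5.69% of genes with a wild-type RPKM of at least 1 did). The first was the merged locus of Mvd, which spans 59 of them. The other was Me1, with chr9:86589309-86589543, which had 42 reads in the column headed RAD23B and 84 in the column headed IgG. Every region of that list has more reads in the column headed IgG, and which library the regions were called in could not be settled from the values. No region was listed at the other genes, but this list is 1 library with no replicate and no calling threshold is stated for it.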

How the data were processed

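Poly-A RNA of 4 single libraries and RAD23B chromatin of 3 libraries were analysed from deposited tables. The symbols, lists and alternatives were chosen with earlier results of these data known. Per the submitters' processing notes, TopHat2 2.0.6, Cufflinks 2.0.2, Cuffdiff and Partek were used with mm9. The authors deposited RPKM scaled separately in each of 3 tables, with wild-type values 1.03 and 1.02 times as high in the Rad23b-null table as in the knockdown 1 and 2 tables; ratios stay within a table, and printed wild-type levels are from the Rad23b-null table. An RPKM of exactly 1 was read as 0. The deposited p-values have no stated adjustment. Region lists hold, per the file headers, counts of reads and a fold ratio over IgG; replicate 2 counts, headed with replicate 1 names, were not used. In all, 17 numeric columns were not used, and 72 lines without a gene were left out. Every named gene is given, with values by library. Hmgcs1, listed 2 times with equal values, was counted once; 10 genes share listed coordinates. Computations used Python 3.11.15, numpy 2.4.6, pandas 2.3.3 and matplotlib 3.10.9, with a pseudocount of 1 RPKM and a minimum of 1 RPKM in either library, and were tested on simulated data. No paired or replicated test exists for 1 library per group. Promoter windows come from RefSeq GRCm38.p6, another build than the regions, so regions were not placed on them.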

Additional observations from a re-analysis of the deposited data

How the results depend on the processing

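Over 9 or 10 alternatives each, every median stayed below 0. For sterol genes it ranged from -0.64 to -0.45 in Rad23b-null cells, -0.48 to -0.30 in knockdown 1 and -0.46 to -0.29 in knockdown 2, and for fatty acid genes from -1.01 to -0.61, -0.83 to -0.34 and -0.77 to -0.33. Of 206 values under alternatives 174 stayed within 1.5 times the reported value, and no median reversed. Counts could not reverse, and part of the 174 had little room to move. The counts of 2-fold higher genes were 0 at every setting, and all 31 genes passed the RPKM filter that 1 alternative dropped. With no replicates the limit of 1.5 times is a convention and no measure of error. Values below are in the order Rad23b-null, knockdown 1, knockdown 2 where 3 are given. At the 1.5-fold limit 13, 7 and 5 sterol and 8, 6 and 5 fatty acid genes were lower. The shares were 16.4%, 12.4% and 13.7% of all genes and 24.41%, 16.9% and 20.01% of genes at 20 RPKM or more. In Rad23b-null cells a pseudocount of 5 RPKM left 1 sterol and 2 fatty acid genes 2-fold lower (2.42% of all genes), and centring on the median of all genes left 1 and 1 (3.07%); in knockdown 2 that centring left 1 fatty acid gene (2.66%). With own coordinates only, no sterol gene (0) was 2-fold lower in either knockdown, since Fdps drops out, and the fatty acid median in Rad23b-null cells was -1.01. Centring on the median of all genes took the medians of the other sterol genes to -0.047, -0.141 and -0.031 and of the other fatty acid genes to -0.118, -0.019 and -0.060. Chosen after seeing the data, centring on the chromosome median gave sterol medians of -0.45, -0.38 and -0.29, fatty acid medians of -0.61, -0.34 and -0.33, and counts of 1 sterol gene (Rad23b-null) and 1, 1 and 1 fatty acid genes (2.82%, 2.26% and 2.46% of all genes); without chromosome 11, fatty acid counts were 2, 1 and 1 and the knockdown 1 median -0.50. Shared regions stood at 10 sterol genes within 1 kb of the start and 12 with own coordinates only, of 13 that could be used. The shares were 67.1% and 77.4% of 8398 genes of all types with own coordinates. They were 75.5% and 85.6% of protein-coding genes alone, and 82.8% and 89.5% of those at 20 RPKM or more. With a fold of at least 2 in both replicates, 14 of 20 sterol and 9 of 10 fatty acid genes kept a shared region within 5 kb. The share was then 44.3% of all genes with a wild-type RPKM of at least 1. No paired analysis was possible because no list was given for the IgG libraries and the results come from no test. Leaving out an RNA library was not possible with 1 per group. Neither RNA read totals nor calling thresholds are stated, so the precision of single values is unknown. Causes were not tested.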
